A study of Mus musculus with 10 samples.

Results

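The 4 Hox clusters, HoxA to HoxD, were followed through every array feature whose symbol names a gene of those clusters, from paralogue 1 to paralogue 13. This gave 38 genes with 59 features in all. After a filter on dim features 34 of the 38 genes were tested, among 16650 genes of the whole array, and Hoxb1, Hoxb13, Hoxc12 and Hoxd1 fell below it. The members were taken by name, and no measured value entered the rule. The rule itself was set with earlier results of these data known.

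Hox genes encode homeodomain transcription factors that give cells along the body axis their regional identity, and their order along each cluster mirrors the order of their domains from head to tail. Genes of the same number in different clusters are paralogues that descend from a shared ancestral gene, and low-numbered genes act in anterior regions while high-numbered genes act in the posterior trunk, the limbs and the urogenital tract. Cultured fibroblasts keep the Hox pattern of the place in the body they came from, which is why the clusters serve as a positional record in such cells.

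Total RNA from cultures of mouse cells, labelled with Cy3, was read on 10 Agilent arrays. All cells shared 1 background, a congenic strain homozygous for R26-M2rtTA, the transactivator that responds to doxycycline (dox). Induced embryonic Sertoli-like cells (ieSCs), the product of converting fibroblasts toward the somatic cells of the testis cords, carried Nr5a1, Wt1, Dmrt1, Gata4 and Sox9 as transgenes. They were kept for 2 weeks off dox, in F12/DMEM medium at 20% O2 and 5% CO2. Of the ieSC arrays 4 were from cells converted from mouse embryonic fibroblasts (MEFs) and 4 from cells converted from female tail tip fibroblasts (TTFs). The control was MEFs without transgene, cultured for 2 weeks, on 2 arrays that share 1 name, so every comparison with MEFs rests on a single control name. Each kind of ieSC carries the names 1 and 2 with 2 arrays each, called here 1a, 1b, 2a and 2b, and the values of an ieSC group are given in that order. The labels do not say whether a name is a clone, a line or a culture, nor whether arrays of a name come from separate cultures, so a p-value measures only how far these arrays and names spread, which may be technical. No array of unconverted TTFs was analysed here. A TTF-derived value can therefore be set only against MEFs, and a difference between the kinds of ieSC cannot be told apart from one between their starting cells.

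All values are deposited log2 intensities, and a level on this scale belongs to its own probe and is not set against that of another gene. The 40th percentile of an array lay between 4.99 and 5.02, which marks the dim end below which a level has no firm meaning. For a gene that ended there the log2 difference depends on the floor of the array. For such Hox genes the difference over all ieSCs with values below the 40th percentile raised to it is given too. It is called a bounded fall, and is given where it is another value. Arrays of a name correlated at 0.990 to 0.997, and a MEF array with an ieSC array at 0.926 to 0.941. Several markers stood against the labels or moved with the groups. Xist, the RNA of the inactive X chromosome, lay at 3.77 to 4.35 on the 4 arrays labelled as from female TTFs, below the filter level, where the female label would have it present. It was as dim on the MEF-derived arrays, with a mean of 4.02 ± 0.50 (SD, n = 4), against 9.34 ± 0.04 in MEFs (SD, n = 2). Eif2s3y, a Y-linked gene, had a mean of 10.31 on the MEF arrays, with 3.64 for MEF-derived cells and 3.71 for TTF-derived cells. Both comparisons with MEFs therefore differ in these sex markers as well. Of all 16650 genes 25.9% were called higher and 23.6% lower in ieSCs than in MEFs (limma, adjusted p under 0.05). Beside these shares, 5 of 10 tested Sertoli markers were higher and 5 lower, with Amh and Fshr below the filter. Of the defining ones, Dhh was higher by 7.23, and of the 5 that are also transgenes Wt1 was higher by 5.60, while Sox9, Gata4, Nr5a1 and Dmrt1 were lower, with -3.46, -1.90, -0.68 and -0.50. All 8 macrophage markers were lower in ieSCs, and their summed level (log2 of the sum of linear values) was 16.02 to 16.09 on the MEF arrays, 11.16 to 11.49 on the MEF-derived and 10.41 to 11.30 on the TTF-derived arrays. Of 10 fibroblast markers 9 were lower, with sums of 19.99 to 20.03, 17.91 to 18.84 and 18.94 to 19.15. Mesothelial markers were higher for 3 and lower for 1 of 4, epithelial markers higher for 2 of 3 tested, with Cdh1 and Epcam below the filter, and endothelial markers higher for 1 and lower for 1 of 3 tested. The part of these markers in the Hox differences was not tested. In such bulk samples fewer cells of a type and less RNA per cell cannot be told apart.

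In ieSCs as a whole every tested HoxB and HoxC gene fell, most of them to the dim end of the arrays, while most HoxA and HoxD genes stayed well above it, and 5 posterior members of these clusters rose. Of the 34 tested Hox genes 24 were lower and 5 higher in ieSCs than in MEFs (limma, adjusted p under 0.05), with a median log2 difference of -1.75. Over all 16650 genes 23.6% were called lower and 25.9% higher, with a median of 0.09. By cluster, HoxB had 8 lower and 0 higher of 8 tested, with a median of -5.85, and HoxC had 8 lower and 0 higher of 8, with a median of -3.89. At an unadjusted p under 0.05 the number of higher genes in each was 0 as well. HoxA had 3 lower and 3 higher of 10, with a median of -0.04, and HoxD had 5 lower and 2 higher of 8, with a median of -0.87. Falls of at least 4 on the log2 scale were called for 12 Hox genes, of which 7 lay in HoxB, 4 in HoxC and 1, Hoxd12, in HoxD. Of all genes 3.9% had such a fall. These counts use differences that depend on the floor of the array. As bounded falls Hoxd12 and Hoxc5 had -2.45 and -3.45, short of 4.

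The filter bears on these counts. Of the tested genes, 11 passed it only through the MEF arrays, with 4 in HoxB, 6 in HoxC and 1 in HoxD, and such a gene could hardly be anything but lower in ieSCs. Without any filter, over all 38 genes, 24 were again lower and 5 higher, where 19.4% of 20738 genes were lower and 21.2% higher. In that fit the 4 genes below the filter were not called, with differences from -0.62 for Hoxd1 to -0.15 for Hoxb1 and adjusted p-values of 0.168 to 0.762.

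**Figure D1:**
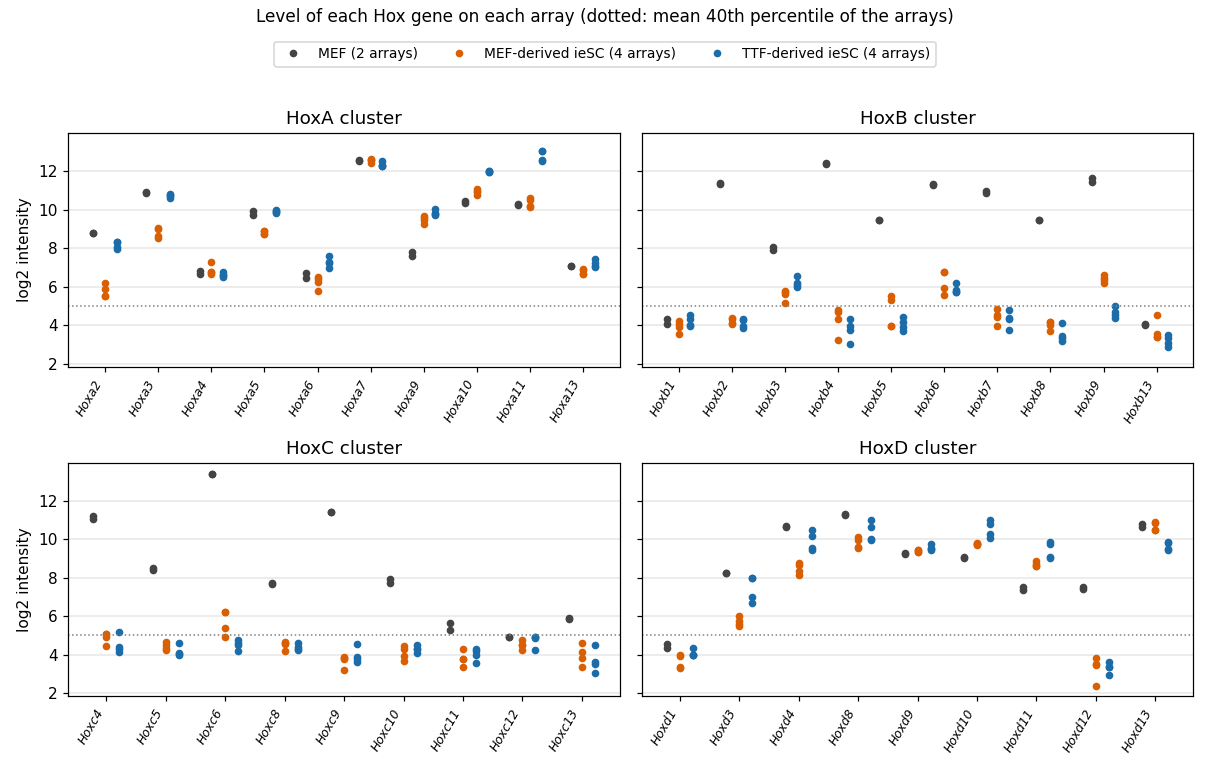
Log2 intensity of each of the 38 Hox genes on each of the 10 arrays, by cluster and in paralogue order, with MEF arrays in grey, MEF-derived ieSC arrays in orange and TTF-derived ieSC arrays in blue; the dotted line is the mean 40th percentile of the arrays. On the HoxC panel every MEF point but those of Hoxc12 lies above the line and nearly all ieSC points lie below it, while on the HoxA panel all points lie above it.

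How many genes stood above the 40th percentile restates this split as levels, from the same array values and so not as separate support. No share over all genes is given beside these counts. In MEFs 10 of 10 HoxA, 8 of 10 HoxB, 8 of 9 HoxC and 8 of 9 HoxD genes lay above it on both arrays. The MEF-derived ieSCs had 10 of 10 HoxA, 3 of 10 HoxB, 0 of 9 HoxC and 7 of 9 HoxD genes above it on all 4 arrays. The TTF-derived ieSCs had 10, 2, 0 and 7. In HoxC, 2 genes in MEF-derived and 1 in TTF-derived cells were above it on some arrays only.

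Within paralogue groups 4 and 8 the differences from MEFs lay far apart between clusters. The stretches before the transcription starts are shown for 6 genes: Hoxb4, Hoxc4 and Hoxd4 of group 4, Hoxb8 and Hoxd8 of group 8, and Hoxa9, the largest rise. Each is the 250 bases before the RefSeq start, read 5' to 3' on the gene's own strand in GRCm38.p6, with CG dinucleotides, the sites of DNA methylation in mammals, in capitals. They lie at chr11:96318017-96318266, chr15:103034145-103034394, chr2:74721728-74721977, chr11:96281655-96281904 and chr2:74704365-74704614 on the plus strand, and chr6:52227371-52227620 on the minus strand.
Hoxb4: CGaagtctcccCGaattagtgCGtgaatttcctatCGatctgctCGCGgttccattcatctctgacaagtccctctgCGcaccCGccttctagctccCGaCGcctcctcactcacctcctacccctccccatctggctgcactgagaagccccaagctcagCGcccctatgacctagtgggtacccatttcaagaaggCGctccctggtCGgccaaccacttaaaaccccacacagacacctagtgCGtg
Hoxc4: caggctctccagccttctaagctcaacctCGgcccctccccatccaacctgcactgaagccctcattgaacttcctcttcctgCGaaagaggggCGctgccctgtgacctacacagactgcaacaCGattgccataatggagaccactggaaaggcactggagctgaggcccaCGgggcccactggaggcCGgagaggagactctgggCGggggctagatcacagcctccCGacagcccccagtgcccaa
Hoxd4: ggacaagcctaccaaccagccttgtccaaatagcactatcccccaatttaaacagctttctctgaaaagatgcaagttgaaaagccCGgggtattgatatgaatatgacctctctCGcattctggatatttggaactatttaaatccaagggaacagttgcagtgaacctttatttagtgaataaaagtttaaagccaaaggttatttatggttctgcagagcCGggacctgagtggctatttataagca
Hoxb8: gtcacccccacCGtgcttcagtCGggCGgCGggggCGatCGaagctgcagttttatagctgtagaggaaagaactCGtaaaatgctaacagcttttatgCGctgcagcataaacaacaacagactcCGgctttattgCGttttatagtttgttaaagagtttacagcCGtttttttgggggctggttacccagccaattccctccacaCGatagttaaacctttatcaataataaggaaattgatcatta
Hoxd8: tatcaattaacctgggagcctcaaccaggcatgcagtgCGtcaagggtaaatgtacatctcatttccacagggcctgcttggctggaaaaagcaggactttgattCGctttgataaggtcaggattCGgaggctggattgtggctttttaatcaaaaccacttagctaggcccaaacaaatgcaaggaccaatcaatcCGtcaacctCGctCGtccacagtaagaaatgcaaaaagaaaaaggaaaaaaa
Hoxa9: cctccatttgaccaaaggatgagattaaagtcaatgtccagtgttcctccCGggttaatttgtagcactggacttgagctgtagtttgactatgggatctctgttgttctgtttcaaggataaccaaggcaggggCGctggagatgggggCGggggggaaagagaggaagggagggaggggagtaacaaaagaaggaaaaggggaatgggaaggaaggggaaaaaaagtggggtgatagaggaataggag
CG dinucleotides numbered 14 in Hoxb4, 8 in Hoxc4 and 3 in Hoxd4, then 12 in Hoxb8 and 6 in Hoxd8, and 3 in Hoxa9. The median over 32851 RefSeq promoters of this length was 6, with quartiles at 2 and 16. A promoter entry was matched for 22 of the 38 Hox genes, 24 entries in all. Over these entries CG counts ran from 3 to 35 in HoxA, 7 to 14 in HoxB and 2 to 31 in HoxD, with 8 in the single HoxC entry. The medians were 15.5 in HoxA, 12 in HoxB and 12.5 in HoxD. The lower counts of the shown HoxA and HoxD genes thus did not hold for these clusters as a whole. DNA methylation was not analysed here.

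The same windows were searched on both strands for 3 motifs. The joint Hox and Pbx motif TGATTNAT was in 2 of the 24 entries, those of Hoxa2 and of 1 Hoxd11 start, and in 2.82% of all promoters. TTTATNG, which posterior Hox proteins and Cdx proteins prefer, was found in Hoxb8 and Hoxd4 and in 9.81% of all promoters. GCGTGGGNG, the core of the motif of the transgene factor Wt1, occurred in Hoxa2 and in 1.65% of all promoters. Hoxa2 was the single gene with 2 of these motifs, and a match is a description of the letters only.

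The HoxB genes fell together from Hoxb2 to Hoxb9. Hoxb4, known for the expansion of blood stem cells, lay at 12.42 and 12.36 on the MEF arrays, at 4.80, 4.31, 4.67 and 3.22 on the MEF-derived and at 3.74, 3.05, 4.31 and 3.94 on the TTF-derived arrays. All 8 ieSC values were at the dim end, far below both MEF values, and the difference was -8.38 ± 0.69 (SE, adjusted p = 7.6e-06), or -7.38 as a bounded fall. Hoxb2, a gene of hindbrain segments, stood at 11.39 and 11.33 in MEFs, at 4.08, 4.12, 4.38 and 4.31 in MEF-derived and at 3.86, 4.29, 4.31 and 3.94 in TTF-derived ieSCs. No ieSC array came near the MEF arrays, with a difference of -7.19 ± 0.24 (adjusted p = 2.44e-08) and a bounded fall of -6.35. For Hoxb7, a trunk gene, the MEF values were 10.99 and 10.87, the MEF-derived 4.45, 4.53, 3.97 and 4.84, and the TTF-derived 4.32, 4.78, 3.74 and 4.38. Again every ieSC array was dim, with a difference of -6.55 ± 0.46 (adjusted p = 2.71e-06) and a bounded fall of -5.92.

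The other HoxB genes kept this direction with different end points. Hoxb5, Hoxb6, Hoxb8 and Hoxb9 fell by 5.09 to 6.01, with bounded falls of -4.35, -4.47 and -5.83 for Hoxb5, Hoxb8 and Hoxb9, and Hoxb3, which acts in the hindbrain and pharynx, fell by 2.09 ± 0.34. Hoxb3 is the smallest fall of the cluster on the feature with the higher mean, yet its 2 features ranged from -5.68 to -2.09. Between the kinds of ieSC these features differ in sign, with -0.86 and 0.64. Hoxb6 stayed above the 40th percentile on all 8 ieSC arrays, at 5.56 to 6.76 in MEF-derived and 5.75 to 6.19 in TTF-derived cells, against 11.27 and 11.34 in MEFs. All 8 HoxB falls were called in each of the 25 alternatives tried for this comparison.

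In HoxC all 8 tested genes fell, and Hoxc6 and Hoxc9, which mark the trunk, fell furthest. Hoxc6 stood at 13.41 on both MEF arrays, at 6.21, 6.25, 4.92 and 5.40 in MEF-derived and at 4.53, 4.62, 4.18 and 4.78 in TTF-derived ieSCs. MEF-derived cells kept a low signal on 3 of 4 arrays and TTF-derived cells on 0 of 4, with a difference of -8.30 ± 0.41 for all ieSCs (adjusted p = 2.64e-07) and a bounded fall of -8.05. Hoxc9, which sets thoracic motor neuron identity, lay at 11.41 and 11.40 in MEFs, at 3.83, 3.80, 3.20 and 3.90 in MEF-derived and at 3.62, 3.77, 4.54 and 3.86 in TTF-derived ieSCs. The fall of both kinds ended at the dim end, with a difference of -7.59 ± 0.40 (adjusted p = 4.1e-07) and a bounded fall of -6.40. Hoxc4 was at 11.19 and 11.05 in MEFs, at 5.08, 5.10, 4.47 and 4.95 in MEF-derived and at 4.32, 4.39, 4.15 and 5.20 in TTF-derived ieSCs. Its ieSC values scattered around the 40th percentile, and the difference was -6.41 ± 0.46 (adjusted p = 2.93e-06), with a bounded fall of -6.07.

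The other HoxC genes had smaller differences. Those of Hoxc5, Hoxc8 and Hoxc10 were -4.15, -3.26 and -3.63, with bounded falls of -3.45, -2.70 and -2.83. Hoxc11 fell by 1.58 ± 0.43 from 5.68 and 5.29, with a bounded fall of -0.48, and Hoxc13, a hair and nail gene, by 2.05 ± 0.73 from 5.89 and 5.86, with a bounded fall of -0.87. The call of Hoxc13 (adjusted p = 0.0426) was lost without any 1 of 6 arrays, either MEF array (adjusted p = 0.0858 and 0.083) or array 1a or 1b of either kind of ieSC (0.052 to 0.0646). Hoxc11 and Hoxc13 are 2 of the genes that passed the filter only through MEFs.

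**Figure D2:**
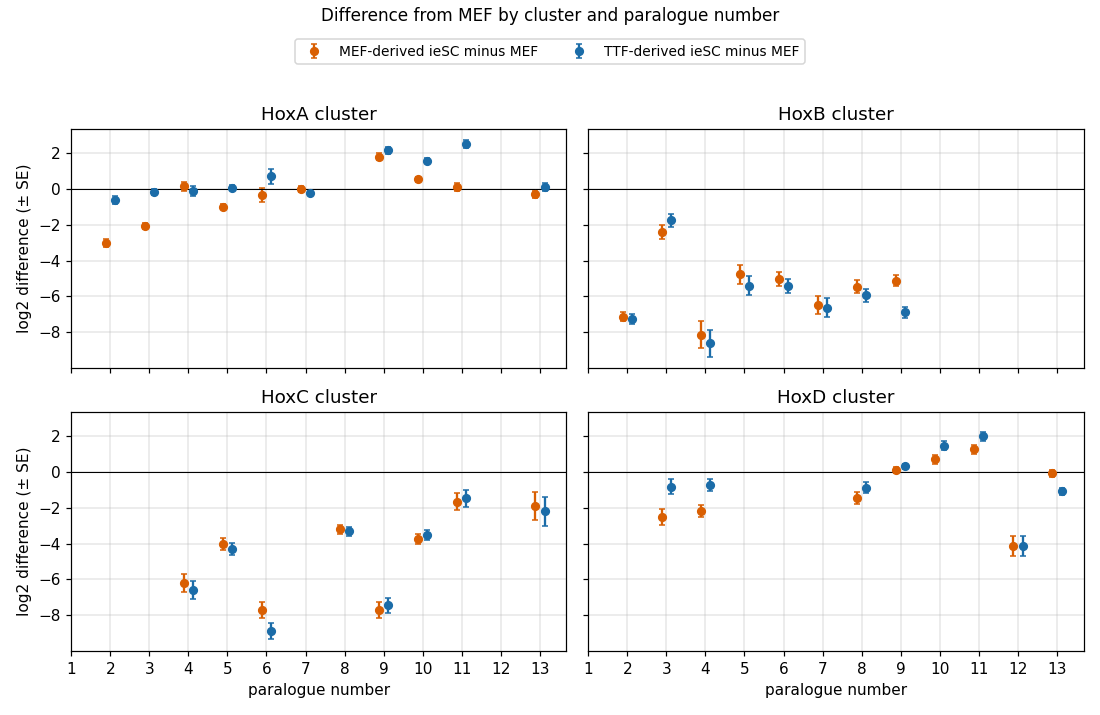
Log2 difference from MEF (± SE) of the 34 tested Hox genes against paralogue number, in 1 panel per cluster, for MEF-derived ieSCs in orange and TTF-derived ieSCs in blue. HoxB and HoxC points all lie below 0, down to -8.88 for Hoxc6 in TTF-derived cells, whereas HoxA points end at or above 0 from paralogue 9 to 11.

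HoxA kept its signal in ieSCs, and its changes differed by kind. Against MEFs, MEF-derived cells had Hoxa2, Hoxa3 and Hoxa5 lower and Hoxa9 and Hoxa10 higher, and TTF-derived cells had 0 lower and Hoxa9, Hoxa10 and Hoxa11 higher. Hoxa2, which gives the second branchial arch its identity, stood at 8.80 and 8.79 in MEFs, at 5.55, 5.50, 6.21 and 5.87 in MEF-derived and at 8.08, 7.99, 8.31 and 8.32 in TTF-derived ieSCs. The MEF-derived cells were far below the MEFs and the TTF-derived cells just below them, with a difference over both of -1.82 ± 0.22 (adjusted p = 9.37e-05). Hoxa3, needed for the thymus and parathyroid, lay at 10.86 and 10.91 in MEFs, at 8.52, 8.64, 9.03 and 8.99 in MEF-derived and at 10.62, 10.71, 10.74 and 10.84 in TTF-derived ieSCs. Its difference was -1.13 ± 0.16 over all ieSCs (adjusted p = 0.000288), -2.09 ± 0.17 in MEF-derived cells (adjusted p = 7.89e-06) and -0.16 ± 0.17 in TTF-derived cells (adjusted p = 0.507).

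Hoxa9, a gene of blood progenitors and of the lower trunk, rose in both kinds of ieSC. It stood at 7.61 and 7.80 in MEFs, at 9.45, 9.28, 9.59 and 9.68 in MEF-derived and at 10.06, 9.82, 9.75 and 9.77 in TTF-derived ieSCs. No ieSC array overlapped the MEF arrays, with a rise of 1.97 ± 0.18 (adjusted p = 1.32e-05), and its 2 features gave 1.84 and 1.97. Hoxa10, required in the uterus and lumbar region, lay at 10.46 and 10.36 in MEFs, at 10.90, 10.79, 11.09 and 10.97 in MEF-derived and at 12.02, 11.97, 11.95 and 12.02 in TTF-derived ieSCs. Its values stepped up from MEFs to MEF-derived to TTF-derived cells with no overlap, and the rise over all ieSCs was 1.05 ± 0.12 (adjusted p = 8.23e-05). Hoxa11 rose by 1.30 ± 0.19 over all ieSCs, with 0.09 in MEF-derived cells (adjusted p = 0.767) and 2.52 in TTF-derived cells. Hoxa5, a gene of lung and neck development, fell by 0.47 ± 0.12 over all ieSCs, a call lost with the arrays of each name averaged (adjusted p = 0.0713), and its difference in TTF-derived cells alone was 0.07 (adjusted p = 0.726). Hoxa4, Hoxa6, Hoxa7 and Hoxa13 were not called, with differences from -0.11 to 0.18 and adjusted p-values of 0.562 to 0.974.

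In HoxD the low-numbered genes were lower and Hoxd10 and Hoxd11 higher over all ieSCs. The anterior Hoxd3, which patterns the cervical vertebrae, stood at 8.25 on both MEF arrays, at 5.78, 5.62, 6.03 and 5.48 in MEF-derived and at 7.02, 6.68, 7.99 and 7.99 in TTF-derived ieSCs. Every ieSC array was below the MEFs, least so TTF-derived name 2, with a difference of -1.67 ± 0.40 (adjusted p = 0.00641). Hoxd4, its neighbour with a like role, lay at 10.62 and 10.69 in MEFs, at 8.33, 8.15, 8.79 and 8.65 in MEF-derived and at 9.54, 9.43, 10.48 and 10.18 in TTF-derived ieSCs. The order of the groups was that of Hoxd3, and the difference was -1.46 ± 0.30 (adjusted p = 0.00311). Hoxd8 fell by 1.17 ± 0.30, and Hoxd9 had a difference of 0.21 ± 0.14 (adjusted p = 0.248). In TTF-derived cells alone Hoxd3, Hoxd4 and Hoxd8 were not called against MEFs, with -0.83, -0.75 and -0.88 (adjusted p = 0.158, 0.0977 and 0.0523).

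Hoxd10 and Hoxd11, which pattern the hindlimb motor columns and the forearm, rose. Hoxd11 stood at 7.50 and 7.39 in MEFs, at 8.59, 8.62, 8.72 and 8.87 in MEF-derived and at 9.02, 9.10, 9.73 and 9.87 in TTF-derived ieSCs, with a rise of 1.62 ± 0.23 (adjusted p = 0.000334). Hoxd10 lay at 9.10 and 9.02, then at 9.75, 9.79, 9.71 and 9.75, then at 10.25, 10.09, 10.79 and 10.98 in the same groups, with a rise of 1.08 ± 0.23 (adjusted p = 0.00321). Both genes were lowest in MEFs and highest in TTF-derived name 2, without overlap between the 3 groups. In MEF-derived cells alone Hoxd10 rose by 0.69 ± 0.25 (adjusted p = 0.0417), a call lost without any 1 of 8 arrays, both MEF arrays, all 4 MEF-derived arrays and TTF-derived 1a and 2a, at adjusted p-values of 0.0568 to 0.0931.

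Between Hoxd11 and Hoxd13 lies Hoxd12, a digit gene, which went the other way. It stood at 7.52 and 7.40 in MEFs, at 2.40, 3.53, 3.83 and 3.49 in MEF-derived and at 3.62, 3.36, 3.35 and 2.95 in TTF-derived ieSCs. All 8 ieSC values were dim, with a difference of -4.14 ± 0.52 (adjusted p = 0.000138) and a bounded fall of -2.45. It is the single HoxD gene that passed the filter only through MEFs, and it has 1 feature. Hoxd13, the gene of digits and external genitalia, fell by 0.57 ± 0.18 over all ieSCs (adjusted p = 0.0248), a call lost without the second MEF array (-0.49, adjusted p = 0.0765). With the arrays of each name averaged, which leaves 5 values with 1 of MEF, assumed to vary like the others, the calls of Hoxd3, Hoxd4, Hoxd8, Hoxd10 and Hoxd13 over all ieSCs were lost (adjusted p = 0.0646 to 0.158), and those of Hoxd11 and Hoxd12 held.

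**Figure D3:**
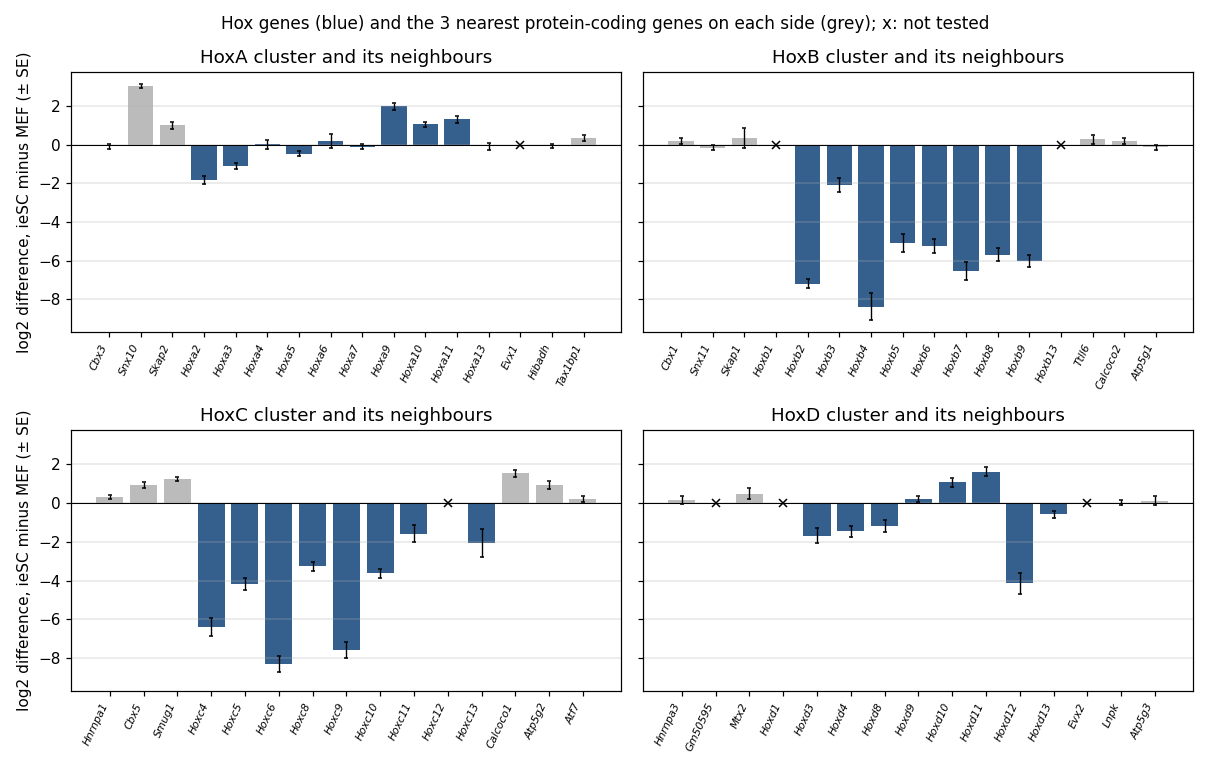
Fitted log2 difference of ieSC minus MEF (± SE) for the Hox genes (blue bars) and the 3 nearest protein-coding genes of RefSeq on each side (grey bars), in gene order with the low-numbered end on the left; a cross marks a gene that was not tested. The HoxB bars run from Hoxb2 to Hoxb9, with both end genes untested, and of the neighbours Snx10 beside HoxA has the tallest bar, at 3.03.

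Set by paralogue number, the split ran between pairs of clusters. The differences here are those over all ieSCs. In 11 of 11 paralogue groups with a tested member on both sides, every HoxB and HoxC difference was below every HoxA and HoxD difference. In group 9 Hoxa9 and Hoxd9 had 1.97 and 0.21, and Hoxb9 and Hoxc9 had -6.01 and -7.59. In group 4 Hoxa4 had 0.01 and Hoxd4 -1.46, and Hoxc4 and Hoxb4 had -6.41 and -8.38. Groups 3 and 13 came closest, with -2.09 for Hoxb3 against -1.67 for Hoxd3, and -2.05 for Hoxc13 against -0.57 for Hoxd13. In MEF-derived cells alone group 3 broke the order, with -2.41 ± 0.37 for Hoxb3 and -2.52 ± 0.44 for Hoxd3. Both statements on group 3 rest on the Hoxb3 feature of higher mean. The other Hoxb3 feature had -5.68 over all ieSCs and -5.26 in MEF-derived cells, where the order would hold. Of the genes below the filter some go against the order of the clusters. Without any filter Hoxb1 had -0.15 against -0.62 for Hoxd1, and Hoxc12 had -0.29 against -4.14 for Hoxd12. Hoxb13 kept the order narrowly, with -0.581 against -0.574 for Hoxd13. This pairing of clusters was chosen with the values known and is a description, and each fall is limited by how far the MEF level stood above the dim end.

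The relation to the position along a cluster is given as a description, and the clusters were not tested against each other. Spearman's rho between paralogue number and the difference of ieSC minus MEF was 0.685 over 10 HoxA genes, 0.667 over 8 HoxC, 0.286 over 8 HoxD and 0.0476 over 8 HoxB genes. The HoxD value was 0.286 for MEF-derived cells and -0.214 for TTF-derived cells. All genes of a cluster share the same 10 arrays, and a HoxC value mostly restates the MEF level of its probe, since 6 of the 8 genes passed the filter only through MEFs. By region, the 5 tested HoxA and HoxD genes of paralogues 1 to 4 had a median of -1.46, the 4 of paralogues 5 to 8 a median of -0.29 and the 9 of paralogues 9 to 13 a median of 1.05. In HoxB and HoxC the medians were -6.80 over 4 genes, -5.23 over 7 and -3.63 over 5.

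Of the 24 genes flanking the clusters, 3 on each side of each, 21 were tested, and 7 were higher and 0 lower in ieSCs than in MEFs (limma, adjusted p under 0.05), with a median of 0.28, where 25.9% of all genes were higher and 23.6% lower. At an unadjusted p under 0.05 the count of lower genes was 0 too. By kind, 1 neighbour was lower in each: Cbx3 beside HoxA in MEF-derived cells (-0.61, adjusted p = 0.0061) and Snx11 beside HoxB in TTF-derived cells (-0.42, adjusted p = 0.0219). Snx10, an endosomal sorting nexin near the low-numbered end of HoxA, rose by 3.03 ± 0.11 (adjusted p = 4.17e-08). Smug1, a DNA repair glycosylase that borders HoxC, rose by 1.23 ± 0.11 (adjusted p = 1.17e-05), and Calcoco1, on the other side of HoxC, by 1.54 ± 0.16 (adjusted p = 4.06e-05). Evx1 and Evx2, homeobox genes at the posterior ends of HoxA and HoxD, were below the filter.

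Set against the same 2 MEF arrays, the kinds of ieSC shared the HoxB and HoxC falls and differed for several HoxA and HoxD genes. Both kinds had Hoxa9, Hoxa10, Hoxd10 and Hoxd11 higher and Hoxd12 lower. In MEF-derived ieSCs 22 Hox genes were lower and 4 higher, where 24% of all genes were lower and 27.2% higher. TTF-derived ieSCs had 18 lower and 5 higher, where 21.9% were lower and 23.3% higher. HoxB had 8 lower in both kinds. HoxC had 7 among cells of MEF origin and 8 among those of TTF origin, the eighth being Hoxc13, with -1.90 ± 0.80 (adjusted p = 0.0753) and -2.20 ± 0.80 (adjusted p = 0.0499). In TTF-derived cells the HoxC calls of Hoxc11 and Hoxc13 were weak: Hoxc11 lost it without the first MEF array or TTF-derived 2a or 2b (adjusted p = 0.0521 to 0.0795), and Hoxc13 without either MEF array, TTF-derived 1a, 1b or 2a, or MEF-derived 1a or 1b (0.0575 to 0.0934). HoxA had 3 lower in MEF-derived cells and 0 in TTF-derived cells by limma. At an unadjusted p under 0.05 the count in TTF-derived cells was 1, Hoxa2, with -0.62 ± 0.24 (adjusted p = 0.0583). Some genes not called in TTF-derived cells were called lower in alternatives: Hoxd8 in 8, Hoxa2 in 6, Hoxd4 in 2 and Hoxd3 in 1. Each of them was called lower without TTF-derived name 2. Between the kinds Hoxd8 differed by 0.59 and was not called (limma, adjusted p = 0.116).

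The direct comparison of the kinds called 10 Hox genes higher and 3 lower in TTF-derived than in MEF-derived ieSCs, where 16.8% of all genes were higher and 19.3% lower. Of the 21 tested flanking genes 9 were higher and 2 lower in the same comparison, with higher ones beside each of the 4 clusters. All 10 higher Hox genes lay in HoxA and HoxD, 6 of 10 and 4 of 8, and the 3 lower Hox genes were Hoxb9, Hoxc6 and Hoxd13. The largest difference was that of Hoxa11, which with its HoxD paralogue shapes the forearm and also acts in the kidney and uterus. It stood at 10.26 and 10.32 in MEFs, at 10.19, 10.17, 10.53 and 10.63 in MEF-derived and at 13.07, 13.07, 12.54 and 12.57 in TTF-derived ieSCs. MEF-derived cells overlapped the MEFs and TTF-derived cells were above both, by 2.43 ± 0.17 over MEF-derived cells (adjusted p = 8.62e-06). The 10 features of Hoxa11 gave 2.39 to 2.53, and whether these are separate probes or repeat spots was not tested.

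**Figure D4:**
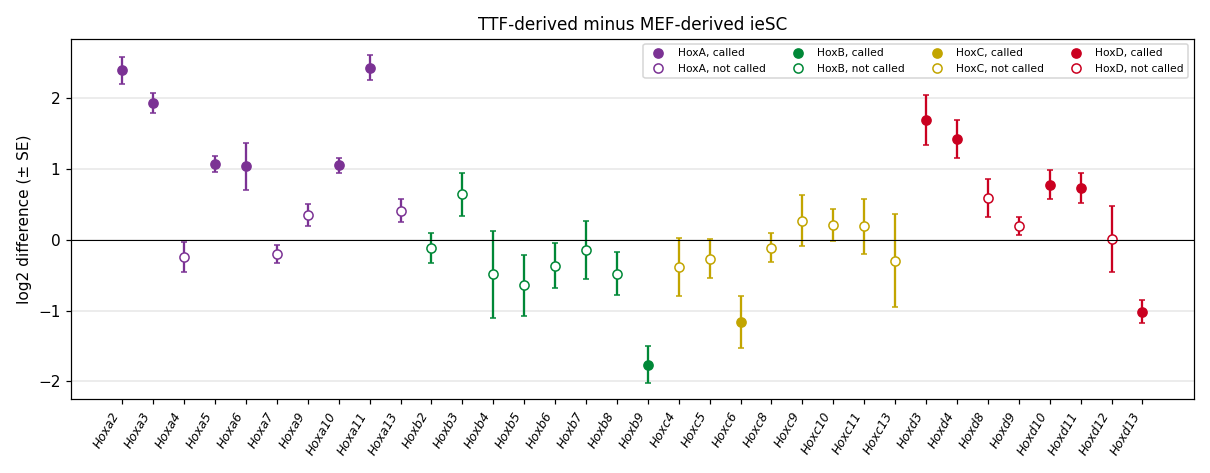
Log2 difference of TTF-derived minus MEF-derived ieSCs (± SE) for the 34 tested Hox genes in cluster and paralogue order, with filled points for genes called at an adjusted p under 0.05 and open points for the rest. Filled points above 0 lie only in HoxA and HoxD, led by Hoxa11 at 2.43 and Hoxa2 at 2.39, and Hoxb9 is the lowest point at -1.76.

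Of the 5 tested HoxA and HoxD genes of paralogues 1 to 4, 4 were higher in TTF-derived cells, and Hoxa4 had -0.25 (adjusted p = 0.422). From the array values above, Hoxa2 differed by 2.39 ± 0.19 (adjusted p = 1.9e-05), Hoxa3 by 1.93 ± 0.14 (adjusted p = 1.01e-05), Hoxd3 by 1.70 ± 0.36 (adjusted p = 0.00499) and Hoxd4 by 1.43 ± 0.27 (adjusted p = 0.00302), with no overlap of the 4 arrays on each side. Hoxa5 stood at 9.75 and 9.93 in MEFs, at 8.77, 8.76, 8.89 and 8.93 in MEF-derived and at 9.93, 9.996, 9.87 and 9.83 in TTF-derived ieSCs. The TTF-derived cells lay at the MEF level and 1.07 ± 0.11 above the MEF-derived cells (adjusted p = 7.05e-05). Hoxa10 differed by 1.05 ± 0.11 (adjusted p = 9.07e-05). Among HoxA and HoxD genes not called, Hoxa13 was called higher in 5 alternatives and Hoxa9 and Hoxd8 in 2 each. Hoxa7 was called lower in 1. In a limma fit of every kept feature, the second features of Hoxa9 and Hoxa13 had 0.51 and 0.70 (adjusted p = 0.00315 and 0.0237).

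Hoxa6, Hoxd10 and Hoxd11 had less certain calls. Hoxa6 lay at 6.72 and 6.47 in MEFs, at 6.42, 5.79, 6.53 and 6.27 in MEF-derived and at 7.25, 7.32, 7.61 and 6.99 in TTF-derived ieSCs. The kinds did not overlap, and the difference was 1.04 ± 0.33 (adjusted p = 0.037), a call lost without TTF-derived 1a, 1b or 2a, without MEF-derived 2b, and without TTF-derived name 1 (adjusted p = 0.0535 to 0.0696). Hoxd10 and Hoxd11 differed by 0.78 ± 0.20 and 0.73 ± 0.21. Without TTF-derived name 2 the difference of Hoxd11 was 0.36 (adjusted p = 0.0679), and without MEF-derived name 1 it was 0.63 (adjusted p = 0.122). Hoxd10 lost its call without MEF-derived name 1 (0.80, adjusted p = 0.0574) or name 2 (0.76, adjusted p = 0.0618). With the arrays of each name averaged, the calls of Hoxd3, Hoxd4, Hoxd10, Hoxd11, Hoxd13 and Hoxc6 between the kinds were lost (adjusted p = 0.0622 to 0.175).

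Posterior Hoxd13 and the trunk genes Hoxb9 and Hoxc6 were lower in TTF-derived cells. Hoxb9, a thoracic gene, stood at 11.65 and 11.42 in MEFs, at 6.23, 6.44, 6.60 and 6.36 in MEF-derived and at 4.53, 4.68, 4.99 and 4.38 in TTF-derived ieSCs. MEF-derived cells kept it above the 40th percentile on all 4 arrays and TTF-derived cells did so on 0, with a difference of -1.76 ± 0.26 (adjusted p = 0.000709), or -1.40 with dim values raised. Hoxd13 was at 10.65 and 10.81, at 10.89, 10.86, 10.46 and 10.46, and at 9.42, 9.50, 9.81 and 9.86 in the same groups, so TTF-derived cells alone were lower, by -1.02 ± 0.16 (adjusted p = 0.00107). Hoxc6 differed by -1.17 ± 0.37 (adjusted p = 0.0328). Its call was lost with dim values raised (-0.71, adjusted p = 0.0711), without any 1 of 6 arrays (TTF-derived 1a, 1b or 2a, MEF-derived 1a, 1b or 2b, adjusted p = 0.0506 to 0.0599), and without TTF-derived name 1 or 2 (0.0684 and 0.0696), while without MEF-derived name 1 the difference was -0.63 (adjusted p = 0.16). The other 14 tested HoxB and HoxC genes were not called, with differences from -0.64 to 0.64, most of them between levels at the dim end. Without MEF-derived name 2, Hoxb5 and Hoxb6 were called lower in TTF-derived cells too (-1.37 and -0.87, adjusted p = 0.0123 and 0.0135).

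Names 1 and 2 of a kind, which share the origin and the treatment, differed within HoxD and within HoxA in different ways. In TTF-derived ieSCs both arrays of name 2 were above both of name 1 for 7 of 8 HoxD genes and below for 1, Hoxd12, with a median difference of 0.73. Over all genes 29.9% were above and 30.5% below. Hoxd3 differed by 1.14 between the names, Hoxd4 by 0.84, Hoxd8 by 0.83, and Hoxd10 and Hoxd11 by 0.71 and 0.74. Name 2 was thus nearer to the MEFs than name 1 for Hoxd3, Hoxd4 and Hoxd8 and farther from them for Hoxd10 and Hoxd11. TTF-derived HoxA genes had 2 above and 4 below, with Hoxa11 lower in name 2 by -0.52.

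In MEF-derived ieSCs name 2 was above name 1 without overlap for 7 of 10 HoxA genes and below for 1, Hoxa7, where 30% of all genes were above and 31.5% below. The largest of these was Hoxa2, at 0.51. In HoxB and HoxC, Hoxb5, Hoxb6 and Hoxc6 were lower in name 2, with differences of -1.45, -0.998 and -1.07. Hoxb5 stood at 5.53 and 5.32 on the arrays of name 1 and at 3.97 and 3.99 on those of name 2, against 9.45 and 9.48 in MEFs, so name 1 kept a signal just above the 40th percentile that name 2 lacked. Each name has 2 arrays and no p-value is given for these differences.

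**Figure D5:**
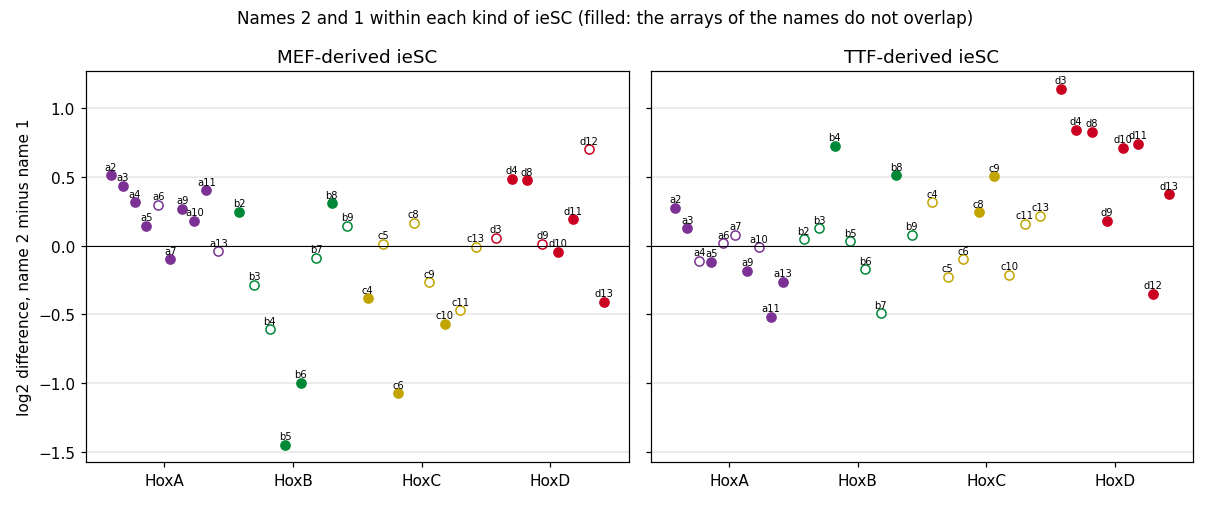
Log2 difference of name 2 minus name 1 for each tested Hox gene (labelled by cluster letter and number) in MEF-derived ieSCs on the left and TTF-derived ieSCs on the right, with filled points where the 2 arrays of each name do not overlap. The TTF-derived HoxD points lie at 0.18 to 1.14 except that of Hoxd12, and Hoxb5 is the lowest MEF-derived point at -1.45.

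Of 17 listed noncoding RNAs of the clusters and Evx genes 2 were tested. Hoxa11os, an antisense RNA of the Hoxa11 locus, had a mean of 11.81 ± 0.01 in MEFs (SD, n = 2), 11.22 ± 0.16 in MEF-derived ieSCs (SD, n = 4) and 13.45 ± 0.29 in TTF-derived ieSCs (SD, n = 4), a difference of 2.23 between the kinds (called higher), beside 2.43 for Hoxa11. Hoxd3os1 was higher in TTF-derived than MEF-derived cells by 1.08 (called higher), beside 1.70 for Hoxd3. The strand and position of the features are not used here, so signal of a gene and its antisense partner cannot be told apart.

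Hox proteins bind DNA with TALE homeodomain partners of the Pbx and Meis families, and of 9 such genes 8 were tested, with 2 higher and 4 lower in ieSCs than in MEFs, beside the 25.9% and 23.6% of all genes. Pbx4 rose by 2.11 ± 0.16 (adjusted p = 4.1e-06), while Pbx3 fell by 1.80 ± 0.16 (adjusted p = 1.04e-05) and Meis3 by 2.21 ± 0.24 (adjusted p = 4.88e-05). The list therefore moved in both directions, with a median of -0.71.

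Regulators of the clusters, among them Polycomb proteins that silence Hox genes and Cdx factors that open them, were tested for 19 of 24 genes, with 6 higher and 2 lower and a median of 0.25, beside the 25.9% and 23.6% of all genes. Cbx2, a Polycomb reader of methylated histone H3, rose by 1.11 ± 0.16 (adjusted p = 0.000349), and Rnf2, the ubiquitin ligase of the same complex, fell by 0.97 ± 0.12 (adjusted p = 9.37e-05). Gdf11, a ligand that turns on posterior Hox genes, rose by 0.95 ± 0.12 (adjusted p = 0.000105). Cdx1, Cdx2 and Cdx4 lay below the filter.

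Retinoic acid switches on anterior Hox genes in embryos, and all 15 listed genes of its synthesis, binding and receptors were tested, with 4 higher and 6 lower and a median of -0.39, beside the same shares of all genes. Of the synthesising enzymes Aldh1a1 rose by 5.65 ± 0.13 (adjusted p = 4.35e-09), while Aldh1a2 and Aldh1a3 were lower, with -3.55 and -2.92 (adjusted p = 7.53e-06 and 0.00106). The binding proteins Crabp1 and Crabp2 fell by 10.01 ± 0.45 (adjusted p = 1.64e-07) and 3.09 ± 0.16 (adjusted p = 4.16e-07). Crabp1 and Aldh1a3 ended at the dim end, with means of 4.21 and 4.53 in MEF-derived and 3.56 and 4.40 in TTF-derived ieSCs. Their falls thus depend on the floor of the array, and no bounded fall is given for them. The list thus held large changes in both directions.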

How the data were processed

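The deposited log2 intensities of 10 arrays were made by the authors with limma (version not given), per the submitters' processing notes. How background was corrected is not given in the sources used, and the table has no detection flags. The log base was inferred from the values, whose columns look quantile-normalized, so a change in total mRNA cannot be seen. Symbols came from the platform annotation, updated through RefSeq (GRCm38.p6), the source of the promoters.

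Features over their array's 40th percentile on 2 or more arrays were kept, and each gene took its kept feature of highest mean. The fit used limma 3.58.1 (R 4.3.3, statmod 1.5.0) with 3 group means over 10 arrays and the name as random block (consensus correlation 0.606), two-sided, Benjamini-Hochberg over 16650 genes. It was tested on simulated data. The number of arrays limits the precision.

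Hox genes given by array were the 3 largest falls and 2 largest rises of each cluster and the 10 largest differences between kinds, among called genes without overlap, and up to 3 genes of smallest p per context list. Others were chosen after their values were seen. Members and lists were chosen with earlier results of these data known. Alternatives changed the filter, dim end, feature choice, normalization and block, or left out arrays and names with the tested features held fixed.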

Additional observations from a re-analysis of the deposited data

Results flagged for a closer look

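Hoxc9 on MEF-derived array 2a, at 3.20, lay apart from the other 3 arrays of its group, at 3.80 to 3.90, all at the dim end. This was the 1 such array among 68 groups of 4 examined, where chance flags about 1 group in 20.

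The effects of the kinds of ieSC against MEF differed by the direct test of TTF-derived minus MEF-derived for 13 Hox genes. Higher in TTF-derived cells were Hoxa11 (2.43), Hoxa2 (2.39), Hoxa3 (1.93), Hoxd3 (1.70), Hoxd4 (1.43), Hoxa5 (1.07), Hoxa10 (1.05), Hoxa6 (1.04), Hoxd10 (0.78) and Hoxd11 (0.73). Lower were Hoxb9 (-1.76), Hoxc6 (-1.17) and Hoxd13 (-1.02). The starting cells of the 2 kinds differ as well, so the source of these differences cannot be told apart.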

How the results depend on the processing

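Of 91 calls of Hox genes over the 4 comparisons, 70 held in all 26 alternatives that could be computed for them and 21 were lost in at least 1, while 0 changed direction. With the arrays of each name averaged, fewer Hox genes were called higher in MEF-derived ieSCs against MEF, and fewer in either direction between the kinds. Fewer HoxD genes were called in ieSCs against MEF. That setting has 5 values, 1 of them MEF and assumed to vary like the others, and fewer degrees of freedom. Over all genes it also called fewer in each of these comparisons.

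Leaving out single arrays or names gave 5 higher and 22 to 24 lower Hox genes in ieSCs against MEF, 3 to 4 and 22 to 23 in MEF-derived, 5 and 16 to 22 in TTF-derived, and 8 to 11 higher and 2 to 5 lower between the kinds, with 5 lower without MEF-derived name 2. By cluster this gave 3 lower HoxA, 8 HoxB, 7 to 8 HoxC and 4 to 5 HoxD genes. With the name number as a replicate block between the kinds, 12 were higher and 3 lower, where 3850 of all 16650 genes were higher and 4489 lower. The numbers are shared labels only (correlation of the deviations of name 1 across kinds 0.297, with 2 numbers), and the block lost no call of the 10 genes named. The filter at the 60th percentile left 6 lower HoxC genes. The number of arrays, and signal at the dim end, limit how far a fall can be measured.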
